A study of Rattus norvegicus with 36 samples.

Results

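Liver RNA was examined for 8 marker genes of lymphocytes, among 14217 genes that the array annotation names through a probe set of a single symbol. They comprise 5 T cell markers (Cd3e, Cd3g, Cd8a, Cd8b and Cd2), 2 B cell markers (Cd79b and Ms4a1) and Gzmb, a gene of cytotoxic cells. Each gene was read from 1 probe set, the one with the highest mean over all arrays, and all 8 genes had such a probe set. The animals were male Harlan Sprague Dawley rats, 7 weeks old at the start, that received corn oil alone (vehicle) or TBPH in corn oil by gavage. The doses were 0.07 mg/kg, 0.71 mg/kg, 7.06 mg/kg, 70.6 mg/kg and 706 mg/kg. TBPH, bis(2-ethylhexyl) tetrabromophthalate, is a brominated flame retardant. Dosing ran for 5 days in a volume of 5 ml/kg, and RNA of the left liver lobe was taken 1 day after the last dose. Each of the 6 groups holds 6 Affymetrix 3′ arrays, 36 in all. The labels number the replicates but name no animals, so the tests compare with the variation among arrays, part of which may be technical.

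The T cell receptor reaches the inside of the cell through the CD3 chains, among them the epsilon (Cd3e) and gamma (Cd3g) chains. CD8, a pair of alpha and beta chains (Cd8a, Cd8b), is the co-receptor of cytotoxic T cells, and CD2 is an adhesion molecule of T and NK cells. Cd79b encodes a signalling chain of the B cell receptor, and Ms4a1 encodes CD20, a membrane protein of B cells. Granzyme B (Gzmb) is a serine protease in the granules of cytotoxic T cells and NK cells. In rat liver, T cells, B cells and NK cells lie mainly in the sinusoids and portal tracts, beside far more numerous hepatocytes and resident macrophages, the Kupffer cells. In whole tissue, fewer cells of a type and less RNA per cell cannot be told apart.

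The upstream sequences of Cd8a and Gzmb are shown because these 2 members varied most between arrays of the same group. They are the 250 bases before the annotated start, read 5′ to 3′ on the gene's strand, from RefSeq on GRCr8, at chr4:104923866-104924115 (plus strand) for Cd8a and chr15:34462470-34462719 (minus strand) for Gzmb. The array table itself names no build. Capitals mark matches to TATAAA (the TATA box), GGAA (the ETS core) and TGTGGT (a RUNX core) on either strand, a match on the other strand being written as its reverse complement, and no matches overlapped.
Cd8a: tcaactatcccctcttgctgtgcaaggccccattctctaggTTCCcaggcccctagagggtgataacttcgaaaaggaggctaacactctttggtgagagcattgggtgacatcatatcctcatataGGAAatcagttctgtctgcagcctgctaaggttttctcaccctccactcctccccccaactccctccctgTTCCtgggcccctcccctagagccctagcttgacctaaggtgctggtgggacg
Gzmb: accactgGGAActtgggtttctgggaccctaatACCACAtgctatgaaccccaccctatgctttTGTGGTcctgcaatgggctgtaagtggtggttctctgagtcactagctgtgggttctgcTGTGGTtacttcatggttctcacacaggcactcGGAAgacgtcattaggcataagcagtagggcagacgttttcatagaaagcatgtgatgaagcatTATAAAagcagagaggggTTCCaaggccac
The Gzmb sequence holds TATAAA 30 bases before the start, TGTGGT at 217, 186 and 127 bases and GGAA at 243, 94 and 12 bases before it. In Cd8a, GGAA lies at 209, 123 and 53 bases before the start, and the other motifs are not in this window. Among the same windows of 33469 genes, TATAAA was found in 12.9%, TGTGGT in 14.5% and GGAA in 93.2%. These matches describe letters in the window, not sites in use. The promoter table held 5 of the 8 members.

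The array values are log2 values on the scale of RMA, which carry no detection call. Therefore 34 genes of other organs (eye, testis, pituitary, brain, muscle and others) stood in for absent genes. Whether each of them is absent from liver was not tested. The means of those 34 probe sets over 36 arrays ran from 2.44 to 6.56 with a median of 3.73, and their 95th percentile, 5.81, served as the floor. None of the 8 lymphocyte members had a mean above 5.81, and none exceeded it on any array. That level falls in the gap between Pomc (5.46) and Lhb (6.46), so it rests on the top few genes of the list. At the 90th percentile, 5.05, 2 members had means above it. Cd8a averaged 5.18, Cd79b 5.11, Cd2 4.99, Cd3e 4.85, Cd3g 4.79, Ms4a1 4.71, Gzmb 4.17 and Cd8b 3.58 log2 units. Only Cd8a and Cd79b lay above the median of all 31042 probe sets, 5.09, and both by 0.1 log2 unit or less. Probe sets differ in how well they bind, so the order of these means is not an order of transcript amounts. Nor does a mean below the floor show that the transcript is absent.

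Against the genes of other organs, Cd8a and Cd79b were each above 31 of 34, Cd2 above 29, Cd3e above 28, Cd3g and Ms4a1 above 27, Gzmb above 22 and Cd8b above 16. Cd8b, the beta chain of the co-receptor, thus stood near the middle of the genes of other organs, while the other 7 members were above the median of that list. Other lymphocyte genes were similarly low: 1 of 18 other T cell genes (the T cell kinase gene Lck, 6.05) and 2 of 12 other B cell genes (the follicular homing receptor gene Cxcr5, 7.90, and the antibody joining chain gene Jchain, 6.65) had means above 5.81. Of 16 cytotoxic and NK genes, 4 did, led by the chemokine gene Ccl5 at 7.64. Markers of hepatocytes and macrophages were mostly above the floor: all 10 hepatocyte genes were at 12.72 or higher, all 12 Kupffer cell and macrophage genes and 9 of 10 pan-leukocyte genes were above the floor, and 0 of 6 neutrophil genes were.

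**Figure D1:**
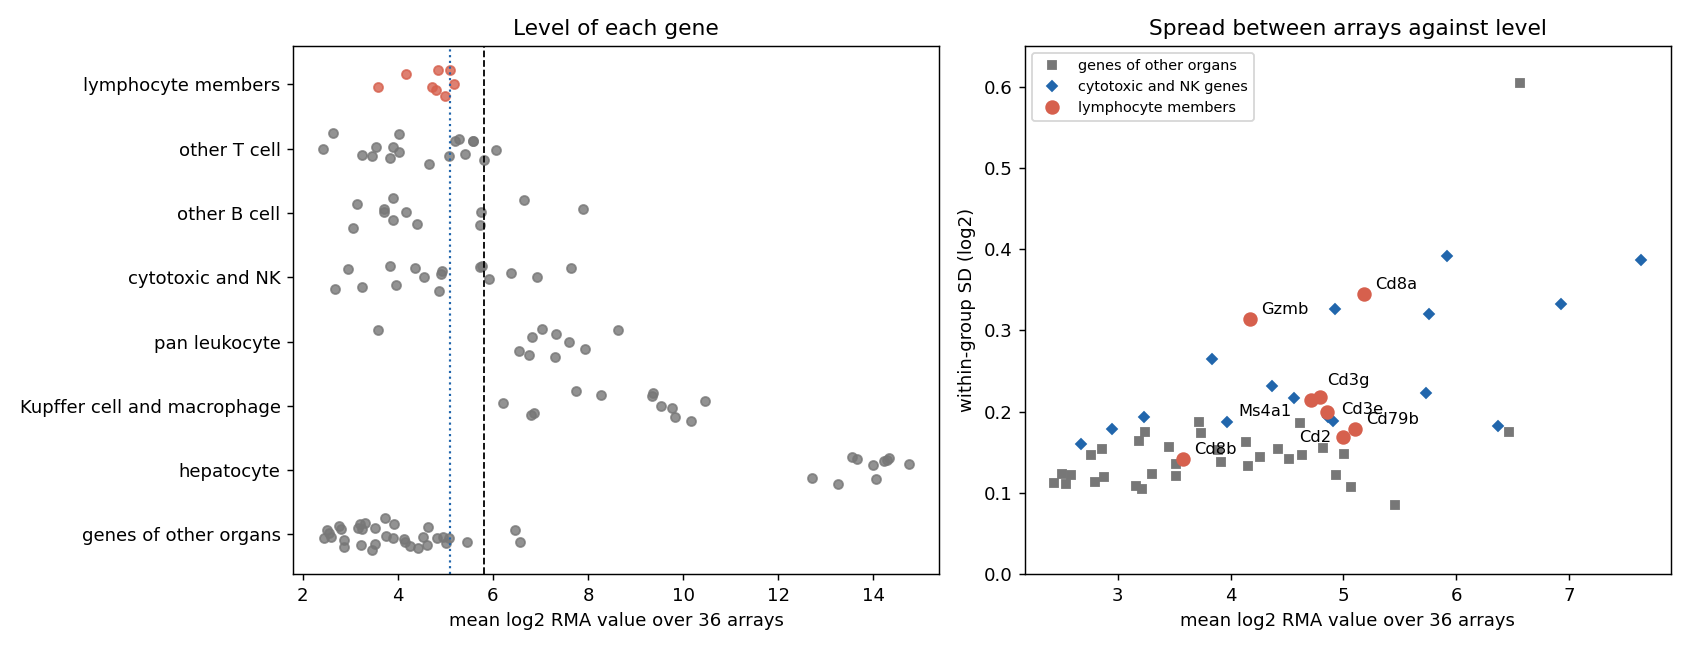
Left, mean log2 RMA value over 36 arrays of each gene (1 point), by list; the dashed line is the 95th percentile of genes of other organs (5.81) and the dotted line the median of all probe sets (5.09). Right, SD between arrays within groups (log2) against the mean; all 8 lymphocyte members lie left of 5.81, and Cd8a and Gzmb have the largest SD among them, 0.34 and 0.31.

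The members differed from one another in spread. The SD between arrays of the same group, pooled over the 6 groups, was 0.34 for Cd8a, 0.31 for Gzmb, 0.22 for Cd3g, 0.21 for Ms4a1, 0.20 for Cd3e, 0.18 for Cd79b, 0.17 for Cd2 and 0.14 for Cd8b. The median was 0.14 for the genes of other organs and 0.15 for all probe sets. Cd8a and Gzmb exceeded 96.1% and 97.2% of the probe sets within 0.25 log2 unit of their own mean, whereas Cd8b exceeded 34.8%. Within the list of other organs only the skin keratin Krt10, with an SD of 0.60, varied more than Cd8a or Gzmb. As descriptions of position among probe sets, these percentiles carry no test.

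Where a gene had more than 1 probe set, the probe sets agreed in part. The 2 Gzmb probe sets correlated within groups with r = 0.66 (rho = 0.67, r = 0.55 without the 2 arrays described below), although the second had a mean of 2.43. A further probe set that carries Gzmb together with another symbol was left out, and rats have several granzyme genes of similar sequence, whose share in the signal was not tested. For Cd8a, the probe set used and the second brightest (mean 4.85) correlated with r = 0.53 (rho = 0.62), while the third (mean 3.86) gave r = 0.15 against the first. For Cd3e, the 2 probe sets gave r = 0.32.

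Across the whole table, the medians of the 36 arrays lay between 5.06 and 5.14. On 2 arrays the difference between the 3′ and 5′ control probe sets of GAPDH, a measure related to RNA length, stood apart: it was 0.41 on 70.6 mg/kg replicate 5 and 0.33 on 0.07 mg/kg replicate 4, against at most 0.09 on the other 34. Replicate 5 of 70.6 mg/kg also had the highest Gzmb (5.37), Cd3g (5.46), Cd79b (5.54) and Cd8b (3.82) of all arrays, whereas 0.07 mg/kg replicate 4 had no member at its highest. On that 70.6 mg/kg array the 16 cytotoxic and NK genes averaged 5.47 against 4.56 to 5.09 on the other 34 arrays, the 6 neutrophil genes 4.27 against 3.65 to 3.96, and the 12 Kupffer cell genes 8.99 against 8.30 to 8.95. The 12 other B cell genes averaged 4.80 there against 4.52 to 4.77, the platelet genes 5.64 against 5.25 to 5.57, and the erythroid genes 6.589 against 5.88 to 6.586. The 18 other T cell genes averaged 4.53 there, inside the range of 4.32 to 4.54. Over all 36 arrays no member correlated with the GAPDH difference after adjustment over the 8 (smallest adjusted p = 0.342, permutation test within groups). The correlations among members and the Gzmb difference at 70.6 mg/kg are given with and without these 2 arrays.

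Whether TBPH changed these markers was asked at each dose with limma across all probe sets. No member differed from vehicle at any dose at an adjusted p under 0.05, where 0% of the 31042 probe sets passed in each of the 5 comparisons, nor for a slope over dose rank or any difference among the groups (0% each). At an unadjusted p under 0.05, no member passed at 0.07 mg/kg (3.07% of all probe sets), 0.71 mg/kg (3.98%), 70.6 mg/kg (5.24%) or 706 mg/kg (3.48%), and 1 of 8, Ms4a1, did at 7.06 mg/kg (3.48%). No member passed it for the slope (4.16% of all), and Ms4a1 alone did for any difference among the 6 groups (2.54% of all).

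Among the T cell markers, Cd3e, the epsilon chain of CD3, averaged 4.85 ± 0.23 in vehicle, 4.82 ± 0.11 at 0.07, 4.83 ± 0.33 at 0.71, 4.86 ± 0.16 at 7.06, 4.84 ± 0.13 at 70.6 and 4.90 ± 0.14 at 706 mg/kg (SD, n = 6 each). All 6 group means lay within 0.1 log2 unit of each other, less than any group's SD. Cd3g, the gamma chain, averaged 4.80 ± 0.18 in vehicle, 4.72 ± 0.10 at 0.07, 4.79 ± 0.19 at 0.71, 4.84 ± 0.12 at 7.06, 4.76 ± 0.39 at 70.6 and 4.84 ± 0.20 at 706 mg/kg. The SD at 70.6 mg/kg was the widest, and that group held both the highest array of the study, 5.46, and the lowest, 4.34. Cd2, the adhesion receptor, averaged 4.98 ± 0.14 in vehicle, 5.00 ± 0.21 at 0.07, 5.02 ± 0.16 at 0.71, 4.97 ± 0.12 at 7.06, 5.01 ± 0.12 at 70.6 and 4.98 ± 0.22 at 706 mg/kg. Of the variance of Cd2 over all arrays, 1.24% lay between groups.

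Cd8a, the alpha chain of the co-receptor, spread widely in every dosed group. Its lowest, median and highest arrays were 4.87, 5.07 and 5.30 in vehicle, 4.56, 5.21 and 5.73 at 0.07 mg/kg, and 4.79, 5.39 and 5.75 at 0.71 mg/kg. They were 4.92, 5.33 and 5.60 at 7.06 mg/kg, 4.71, 4.97 and 5.55 at 70.6 mg/kg, and 4.63, 5.21 and 5.76 at 706 mg/kg. Every dosed group thus overlapped the vehicle arrays, and at 0.71 mg/kg 4 of 6 arrays were above and 1 was below all vehicle arrays. The dose-minus-vehicle difference of Cd8a was largest at 0.71 mg/kg, 0.24 (95% interval -0.14 to 0.62). It was 0.15 without 0.71 mg/kg replicate 2 (5.75), below the 0.21 at 7.06 mg/kg. The other 2 Cd8a probe sets had the opposite sign there, -0.04 and -0.15, and also at 0.07, 7.06 and 70.6 mg/kg.

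Cd8b, the beta chain, averaged 3.57 ± 0.11 in vehicle, 3.67 ± 0.12 at 0.07, 3.59 ± 0.14 at 0.71, 3.51 ± 0.17 at 7.06, 3.66 ± 0.12 at 70.6 and 3.47 ± 0.18 at 706 mg/kg. Between-group differences accounted for 23.1% of its variance, the second highest share among the members, but its p for any difference was 0.136 in limma (adjusted p = 1.00). Within groups, the alpha and beta chains, Cd8a and Cd8b, had r = 0.065 (rho = 0.076, p = 0.726 over 100000 permutations).

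**Figure D2:**
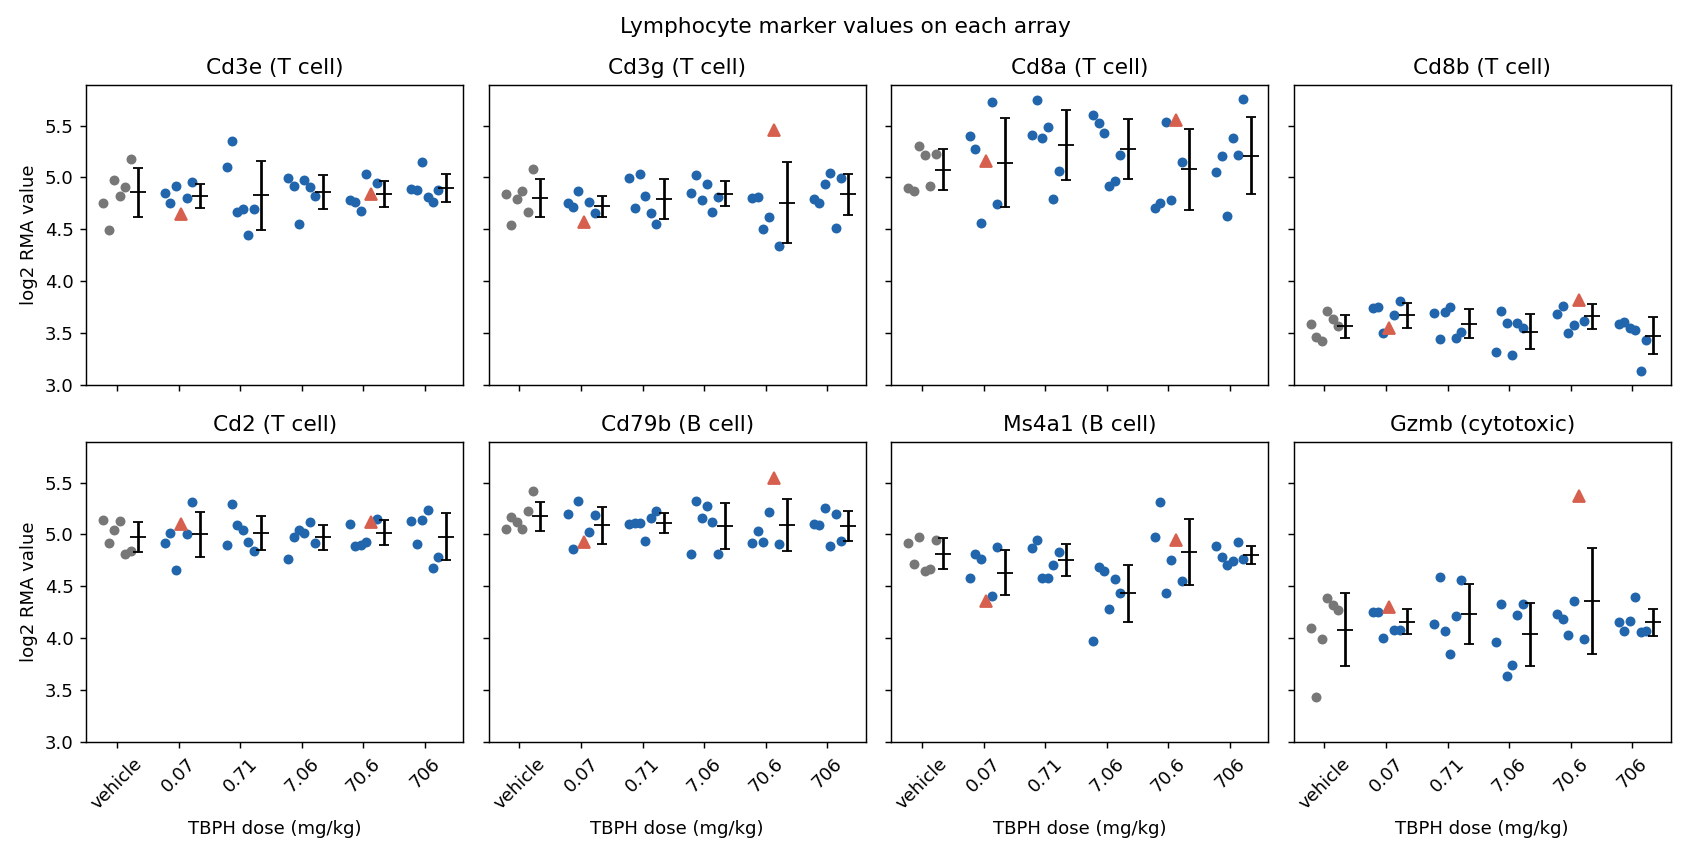
Log2 RMA value of each member on each of 36 arrays, by group from vehicle (grey) to 706 mg/kg, with the group mean and SD as a bar beside the points; triangles are the 2 arrays of high GAPDH difference. Every dosed group overlaps vehicle for every gene, and Ms4a1 at 7.06 mg/kg has 5 of 6 arrays below the lowest vehicle array.

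Of the 2 B cell markers, Ms4a1 had the largest difference of any member at any dose, and it did not pass adjustment. Ms4a1, the CD20 gene, had at 7.06 mg/kg values of 3.97, 4.28, 4.44, 4.57, 4.65 and 4.69, against 4.65, 4.67, 4.72, 4.92, 4.95 and 4.98 in vehicle. The groups overlapped, with 5 of the 6 dosed arrays below every vehicle array before rounding. The means were 4.43 ± 0.27 at 7.06 mg/kg and 4.82 ± 0.15 in vehicle (SD, n = 6 each), which differ by -0.38 (95% interval -0.62 to -0.14). In limma its unadjusted p was 0.00258 and its adjusted p 1.00. An exact two-sided permutation test of this difference gave p = 0.00866 (adjusted over the 40 member comparisons, 0.346), where the smallest p that 6 against 6 arrays can give is 0.00216. The difference ran from -0.44 to -0.29 when each array of the 2 groups was left out in turn.

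The group means of Ms4a1 were not ordered by dose. Its mean was 4.82 ± 0.15 in vehicle, 4.63 ± 0.22 at 0.07, 4.75 ± 0.15 at 0.71, 4.43 ± 0.27 at 7.06, 4.83 ± 0.32 at 70.6 and 4.80 ± 0.09 at 706 mg/kg, so the 2 highest doses were within 0.05 log2 unit of vehicle. It had the largest between-group share of variance among the members, 34.05%, and a p for any difference of 0.0132 in limma (adjusted p = 1.00). Cd79b, the B cell receptor chain, averaged 5.18 ± 0.14 in vehicle, 5.09 ± 0.18 at 0.07, 5.11 ± 0.10 at 0.71, 5.08 ± 0.22 at 7.06, 5.09 ± 0.25 at 70.6 and 5.08 ± 0.15 at 706 mg/kg. All 5 dosed means of Cd79b were below vehicle, by 0.07 to 0.10 log2 unit, against the same 6 vehicle arrays, and none passed the test. At 7.06 mg/kg the difference of Cd79b was -0.09 (95% interval -0.30 to 0.11), where that of Ms4a1 was -0.38, and the 2 were not tested against each other.

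Gzmb, the cytotoxic granule protease, had lowest, median and highest arrays of 3.43, 4.19 and 4.39 in vehicle, 4.001, 4.17 and 4.30 at 0.07 mg/kg, and 3.85, 4.17 and 4.59 at 0.71 mg/kg. They were 3.64, 4.09 and 4.33 at 7.06 mg/kg, 3.99, 4.21 and 5.37 at 70.6 mg/kg, and 4.06, 4.11 and 4.40 at 706 mg/kg. The 6 medians lay between 4.09 and 4.21, and the extremes came from single arrays, a low one in vehicle and a high one at 70.6 mg/kg. The largest difference from vehicle was at 70.6 mg/kg, 0.28 (95% interval -0.07 to 0.62, unadjusted p = 0.112 and adjusted p = 0.921 in limma). Without the 2 arrays of high GAPDH difference, of which 70.6 mg/kg replicate 5 (5.37) is 1, it was 0.075, below the 0.15 at 0.71 mg/kg. The second Gzmb probe set gave -0.0045 at that dose.

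Over the 8 members, 4 were higher and 4 lower than vehicle at 0.07 mg/kg, 4 and 4 at 0.71, 3 and 5 at 7.06, 5 and 3 at 70.6 and 5 and 3 at 706 mg/kg. The median difference was -0.0052 at 0.07, 0.0094 at 0.71, -0.028 at 7.06, 0.0093 at 70.6 and 0.021 at 706 mg/kg, while that of all probe sets was between -0.0041 and -0.0021. Of the 40 intervals, 1 excluded 0, that of Ms4a1 at 7.06 mg/kg. The intervals reached 0.17 to 0.38 log2 unit to either side, with a median of 0.23. All 40 excluded a 2-fold difference in either direction and 37 excluded a 1.5-fold one. Near the floor RMA values compress differences, so these limits hold for the array values, not for transcript amounts. Slopes per dose rank were between -0.016 (Cd8b) and 0.021 (Gzmb) log2 unit.

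**Figure D3:**
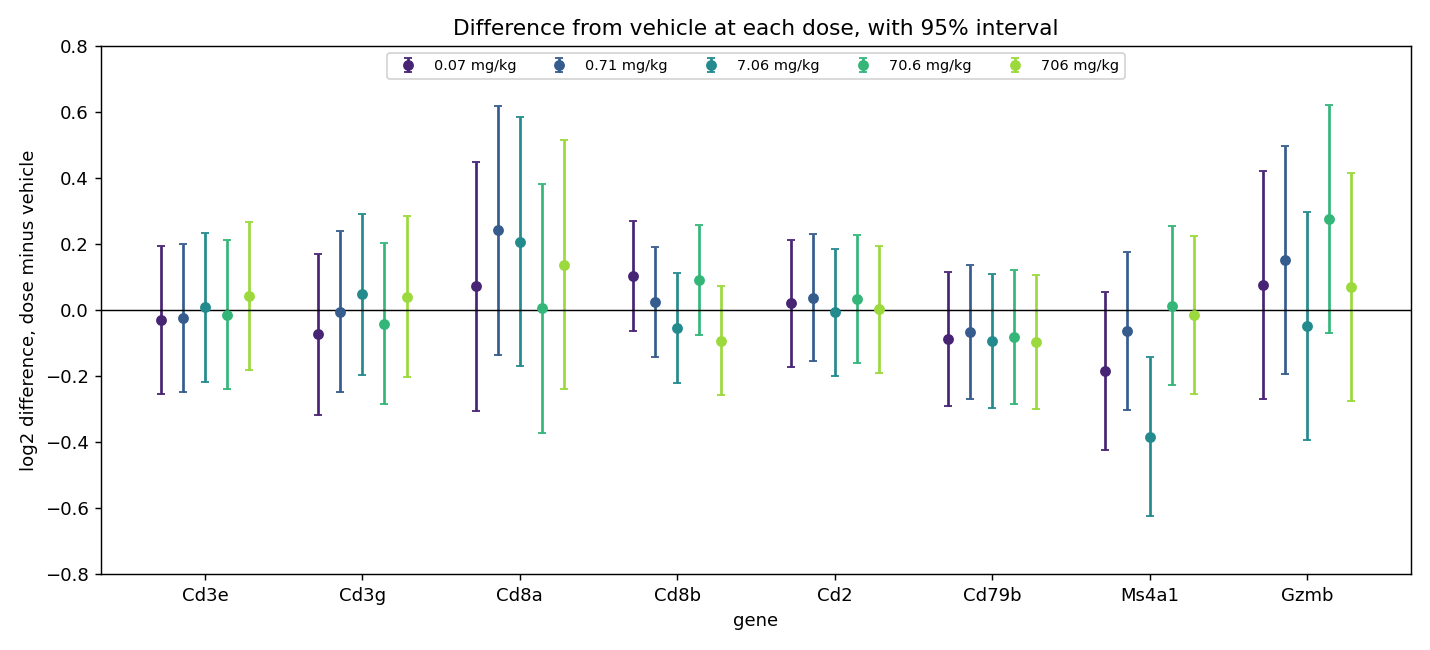
Log2 difference from vehicle (dose minus vehicle) of each member at each of 5 doses, with 95% intervals from limma (n = 6 arrays a group). Of the 40 intervals only that of Ms4a1 at 7.06 mg/kg excludes 0 (-0.62 to -0.14), and its adjusted p is 1.00.

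Other genes of the same cells were counted beside the members. Of 12 other B cell genes at 7.06 mg/kg, 10 were lower and 2 higher than vehicle with a median difference of -0.10. None passed after adjustment, and 2 of 12 had an unadjusted p under 0.05 (3.48% of all probe sets). They had opposite signs. Cd22, an inhibitory co-receptor of B cells, was at -0.19 (unadjusted p = 0.00748, adjusted p = 1.00 in limma). Pou2af1, a B cell transcription co-activator named here after its values were seen, was at 0.18 (unadjusted p = 0.0314, adjusted p = 1.00). The mean of Pou2af1 over 36 arrays, 3.05, was below the median of genes of other organs, 3.73. At the same dose 10 of 12 Kupffer cell genes were also lower (median -0.12), as were 10 of 16 cytotoxic and NK genes (median -0.06) and 11 of 18 other T cell genes (median -0.02), against 51.9% of all probe sets. Whether these lists move with Ms4a1 for a shared reason was not tested.

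Jchain, the joining chain made by plasma cells, was the B lineage gene with the largest difference in this set: -0.48 at 706 mg/kg (unadjusted p = 0.00926, adjusted p = 1.00) and -0.36 at 0.71 mg/kg. Pou2af1 lay between 0.08 and 0.24 at the 5 doses, each against the same 6 vehicle arrays. Its unadjusted p in limma was 0.00394 at 0.07 mg/kg and 0.0284 at 70.6 mg/kg (adjusted p = 1.00 and 0.921). Cd22 was -0.18 at 70.6 mg/kg and Btk, a kinase of B cell receptor signalling, 0.21 at that dose (unadjusted p = 0.00892 and 0.028), so the 2 B cell genes had opposite signs. With Pou2af1, 3 of 12 other B cell genes had an unadjusted p under 0.05 at 70.6 mg/kg (5.24% of all probe sets), and none passed adjustment. The means of Pou2af1 (3.05) and Btk (3.70) were below the median of genes of other organs, 3.73. Cxcr5 lay between -0.10 and -0.04 at all doses. In the T cell list, at most 1 of 18 genes had an unadjusted p under 0.05 in limma at any dose. The share of all probe sets was 3.07% to 5.24%. The 1 gene was Lck, 0.13 at 0.07 mg/kg (unadjusted p = 0.0445). The other named T cell genes, Zap70 (a kinase of T cell receptor signalling), Tcf7 (a T cell transcription factor) and Cd5 (a receptor on T cells), were between -0.14 and 0.09 at every dose. None of the 16 cytotoxic and NK genes had an unadjusted p under 0.05 at any dose. For 16 genes this is close to the 3.07% to 5.24% of all probe sets. Values at 706 mg/kg were -0.01 for Ccl5, -0.07 for Klrg1 (an inhibitory receptor), -0.13 for Gzmm (granzyme M), 0.10 for Il2rb (a chain of the interleukin receptor) and -0.02 for Prf1 (perforin).

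Whether T and B cell markers vary together between arrays was asked through their correlation within groups. Group means were removed and the 28 pairs of members were compared over 36 arrays, with 100000 permutations within groups and Benjamini-Hochberg adjustment over the 28. None of the 28 pairs passed (smallest adjusted p = 0.225). Of the 28, 25 had r above 0, and the median r was 0.21, or 0.11 without the 2 arrays of high GAPDH difference. An unadjusted p under 0.05 was reached by 3 pairs. The 3 were Cd3g with Cd8b (r = 0.43, rho = 0.37, p = 0.00804), Cd8b with Cd2 (r = 0.42, rho = 0.37, p = 0.0201) and Cd3g with Gzmb (r = 0.49, rho = 0.15, p = 0.0455). The first 2 pairs had r = 0.37 and 0.44 without the 2 arrays of high GAPDH difference, while Cd3g with Gzmb had r = 0.15. Without the 2 arrays farthest from the median of the first gene, r was 0.41, 0.34 and 0.086 for these 3 pairs in turn.

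The 10 T with B pairs had a median r of 0.11, with 7 above and 3 below 0. They ran from -0.24 (Cd8a with Ms4a1) to 0.37 (Cd3g with Cd79b). Those below 0 were both Cd8a pairs (-0.23 with Cd79b) and Cd2 with Cd79b (-0.11). The sign of the Cd8a pairs depended on the probe set. Its other 2 probe sets gave 0.13 and 0.18 with Cd79b, and 0.034 and 0.15 with Ms4a1. The highest of the 10 pairs, Cd3g with Cd79b, had rho = 0.13 and an unadjusted p of 0.0793, and r = 0.036 without the 2 arrays. Without those arrays the median of the 10 pairs was 0.065, and leaving out 1 array at a time gave medians from 0.053 to 0.18. Pairs within the T cell markers had a median r of 0.12 over 10 pairs, all above 0, the lowest at 0.0054. Without the 2 arrays their median was 0.090. Cd3e with Cd8b (-0.026) and Cd8a with Cd2 (-0.015) were then below 0. The B cell pair, Cd79b with Ms4a1, had r = 0.37 (rho = 0.35, p = 0.0866, adjusted p = 0.343), and 0.33 without the 2 arrays. The r of each member with all other probe sets had a median of -0.0093 to 0.025.

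**Figure D4:**
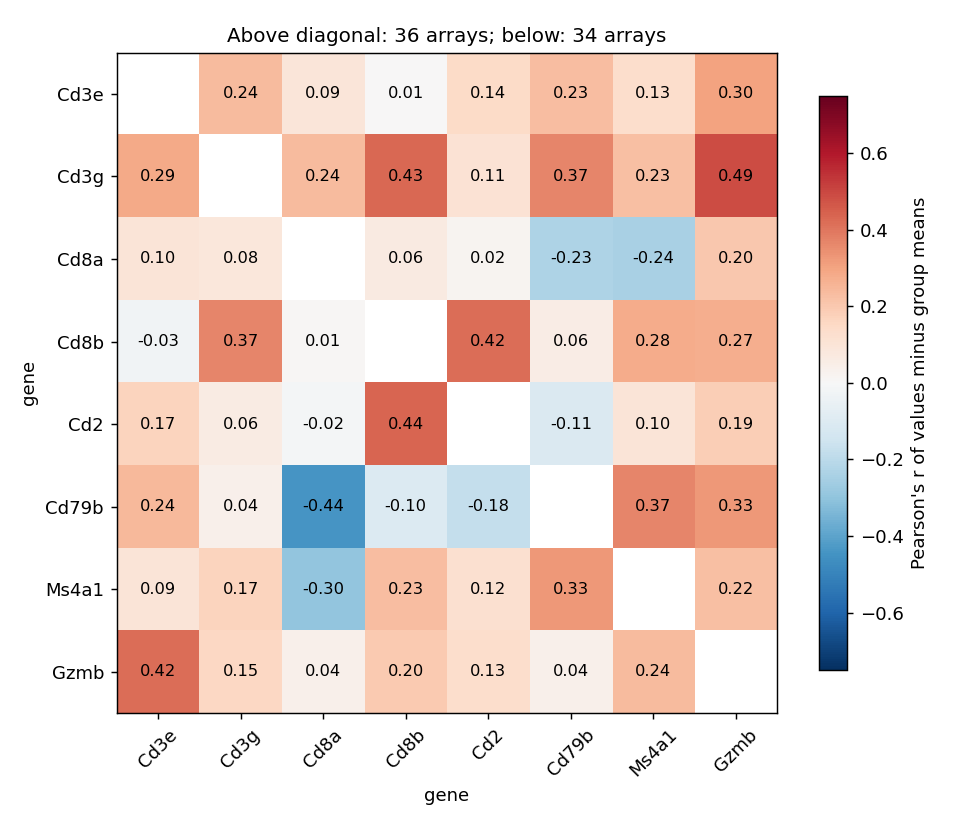
Pearson's r of values minus group means for the 28 pairs of members, above the diagonal over 36 arrays and below it over the 34 arrays without the 2 of high GAPDH difference. Cd3g with Gzmb is 0.49 above and 0.15 below the diagonal, and Cd3g with Cd79b is 0.37 above and 0.036 (drawn as 0.04) below.

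Within single groups of 6 arrays the T with B pairs showed no steady sign. The median r of the 10 pairs was 0.27 in vehicle, 0.18 at 0.07, -0.35 at 0.71, 0.13 at 7.06, 0.32 at 70.6 and -0.53 at 706 mg/kg, and the number of pairs above 0 was 7, 6, 3, 5, 7 and 2 in the same order. Over the 60 values 30 were above 0 and 30 below, and by exact permutation 5 had an unadjusted p under 0.05 (smallest p adjusted over the 60, 0.417). The extremes were Cd2 with Cd79b in vehicle (r = -0.86) and Cd8b with Ms4a1 at 7.06 mg/kg (r = 0.90). Whether the groups differ in these correlations was not tested.

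Gzmb was set against single genes of other blood and liver cell lists, in a set of 592 member and gene pairs added after the pairs among members had been seen. Over 36 arrays 15 pairs passed adjustment over the 592, and 14 of them involved Gzmb. Every member was paired with the same genes, so each held an equal share of the 592. Over 31041 other probe sets, the r of Gzmb had a median of 0.0035, a 95th percentile of 0.36 and a maximum of 0.79. The partners of Gzmb in the 14 pairs were 4 cytotoxic and NK genes, 6 Kupffer cell and macrophage genes, 3 pan-leukocyte genes and 1 T cell gene. None was a gene of the B cell list. Among the cytotoxic genes were Ccl5 (r = 0.72, rho = 0.61, adjusted p = 0.0224), Il2rb (r = 0.69, rho = 0.65, adjusted p = 0.0148), Prf1, which encodes the pore-forming protein of the same granules (r = 0.65, rho = 0.53, adjusted p = 0.0271), and the NK receptor gene Klrb1a (r = 0.64, rho = 0.56, adjusted p = 0.0273). Among the macrophage genes were Clec4f, a lectin of Kupffer cells (r = 0.65, rho = 0.60), Csf1r, the receptor of a macrophage growth factor (r = 0.65, rho = 0.59), and Cd68, a lysosomal protein of macrophages (r = 0.64, rho = 0.61), each with an adjusted p of 0.0224. The small GTPase gene Rac2, of many leukocytes, had r = 0.71 (rho = 0.65, adjusted p = 0.0148).

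These correlations depended on few arrays for their call. Without the 2 arrays of high GAPDH difference, 0 of the 592 pairs passed (smallest adjusted p = 0.0799), with r = 0.60 for Ccl5, 0.67 for Il2rb, 0.50 for Prf1, 0.60 for Clec4f and 0.65 for Rac2. Of the 14 Gzmb pairs, r rose for Itgb2 (0.53 to 0.63), Laptm5 (0.54 to 0.58), Cd5l (0.595 to 0.609) and Sh2d1a (0.547 to 0.550). It fell for the rest of the 14. Without the 2 arrays farthest from the median of Gzmb, which were 70.6 mg/kg replicate 5 (5.37) and vehicle replicate 2 (3.43), no Gzmb pair passed either, with r = 0.47 for Ccl5, 0.60 for Il2rb and 0.57 for Rac2. The second Gzmb probe set correlated with the same 14 genes at r = 0.39 to 0.70, with a median of 0.64 against 0.64 for the first, over the same 36 arrays. This is no independent check. The 14 genes were picked by their r with the first probe set on these arrays, and the 2 probe sets correlate at r = 0.66. By list, the median r of Gzmb was 0.53 over 16 cytotoxic and NK genes, 0.59 over 12 Kupffer cell genes, 0.40 over 10 pan-leukocyte genes, 0.29 over 12 B cell genes, 0.11 over 18 T cell genes and 0.018 over 6 erythroid genes.

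**Figure D5:**
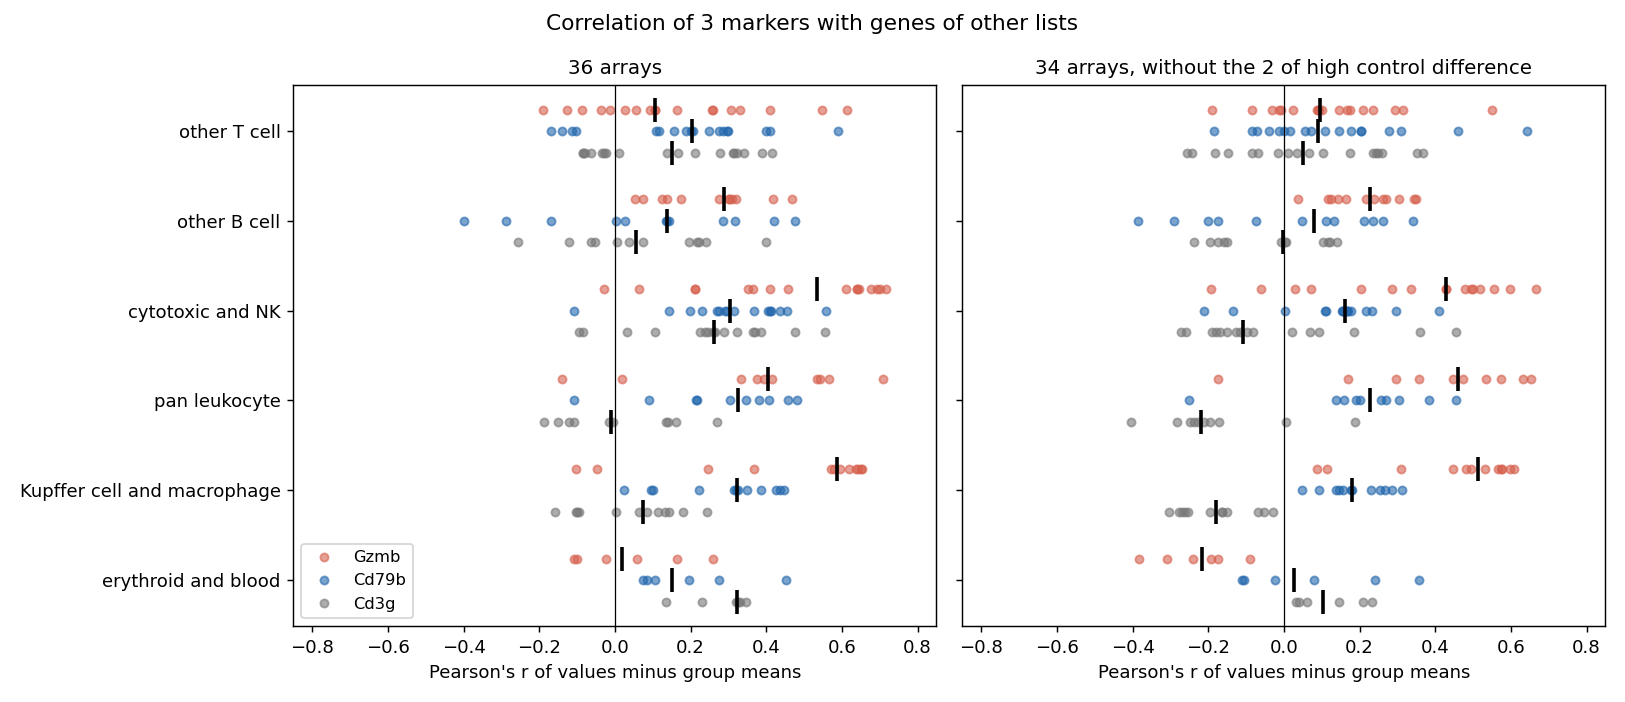
Pearson's r, after removal of group means, of Gzmb, Cd79b and Cd3g with each gene (1 point) of 6 lists over 36 arrays (left) and 34 arrays (right); vertical ticks are medians. The median of Gzmb with cytotoxic and NK genes is 0.53 on the left and 0.43 on the right, while that of Cd3g is 0.26 on the left and -0.11 on the right.

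The other 7 members gave 1 pair past adjustment in that set: Cd79b with Il7r (r = 0.59, rho = 0.66, adjusted p = 0.0271). Il7r, a gene of the other T cell list, encodes an interleukin receptor of lymphocytes. The r of this pair was 0.64 without the 2 arrays (adjusted p = 0.0799). It was 0.71 without the 2 arrays farthest from the median of Cd79b (adjusted p = 0.0118). No pair of Cd3e, Cd3g, Cd8a, Cd8b, Cd2 or Ms4a1 with a gene of the other T cell, B cell, cytotoxic, leukocyte, Kupffer cell or erythroid lists passed. The median r with the 18 other T cell genes was 0.12 for Cd3e, 0.15 for Cd3g, 0.0063 for Cd8a, 0.21 for Cd8b and 0.20 for Cd2. With the 12 other B cell genes it was 0.14 for Cd79b and 0.16 for Ms4a1. Medians across the 2 lineages were of similar size for some members. With the 18 other T cell genes the median was 0.20 for Cd79b and 0.14 for Ms4a1. With the 12 other B cell genes it was 0.046 for Cd3e, 0.055 for Cd3g, -0.0060 for Cd8a, 0.19 for Cd8b and 0.082 for Cd2.

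Among 14209 genes outside the members, those most like the T and the B cell marker of highest mean were found by Pearson's r within groups over 36 arrays, as a description with no test. For Cd8a they were Nudt19 (r = 0.71), Cyp4f6 (0.66), Igfals (0.65), Mro (0.65) and Sult2a2 (0.64), and without the 2 arrays their r was 0.63 to 0.70. Their means were 8.83, 10.41, 10.39, 8.41 and 2.67 in the same order, against 5.18 for Cd8a. With the 18 other T cell genes the median r of Cd8a was only 0.0063. Whether this Cd8a probe set follows T cells in these livers was not tested. For Cd79b they were Ptgs2os (0.67), Lhx9 (0.64), Slamf9 (0.62), Cxcr4 (0.62) and Limd2 (0.60), with r of 0.40 to 0.64 without the 2 arrays.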

How the data were processed

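The authors deposited a single table of log2 values made with RMA from the affy package, per the submitters' processing notes, which give no versions. RMA corrects background, equalises the distributions of the arrays and summarises the probes of a set. Values ran from 1.86 to 14.77. Arrays give no read depth, and their number limits the precision. Of 31099 rows, 57 array controls were left out. Among the other 31042, 20826 had 1 gene symbol, 436 several and 9780 none, and only the first were named.

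Each dose was compared with vehicle in limma 3.58.1 (R 4.3.3), with 1 mean per group on all 36 arrays and 30 residual degrees of freedom; tests were moderated and two-sided, with Benjamini-Hochberg adjustment over all probe sets at 0.05. The submitters' own comparison used R/maanova, per the design text. Intervals are at 95%. Both the fit and the permutation test were checked on simulated data. Correlations used Python 3.11.15 with scipy 1.17.1, and figures matplotlib 3.10.9. Sequences and positions come from RefSeq's GRCr8 tables.

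Members and lists were chosen with earlier results of these data known. Named genes were all 8 members; from each other lymphocyte list, the 3 with the highest mean and the 2 with the smallest p for any difference; and the 5 genes most like the brightest T and B cell marker. Partners of Gzmb and Cd79b were named after their values were seen. The 592 pairs, their values without 2 arrays, the second Gzmb probe set in them and the tests within single groups were chosen after seeing the data. Alternatives covered variance moderation, a replicate block, a filter on dim probe sets, thresholds, array centring, other probe sets, the floor and the arrays used.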

Additional observations from a re-analysis of the deposited data

Results flagged for a closer look

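In 48 groups of 6 arrays (8 members in 6 groups), 4 held an array whose gap to its nearest neighbour exceeded 0.625 of the group's range, Dixon's 95% critical value, and chance alone would give about 1 in 20. Cd3e was 4.55 on 7.06 mg/kg replicate 3, the lowest of its group. Cd3e was 5.15 on 706 mg/kg replicate 3, the highest of its group. Gzmb was 5.37 on 70.6 mg/kg replicate 5, the array with the highest GAPDH control difference, and 4.4 on 706 mg/kg replicate 4, each the highest of its group.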

How the results depend on the processing

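No probe set passed in any comparison under trended and robust moderation, the replicate block, the filter on dim probe sets, a threshold of 0.1, array centring, the fit without the 2 arrays of high GAPDH difference or any of the leave-one-out fits. The replicate numbers do not pair the arrays: over 90 same-numbered pairs the correlation of deviations had a median of -0.019 (-0.41 to 0.27), and 4 of 36 arrays correlated best with their own number. With the replicate number as a block, 0 probe sets were called at each dose. Of the 8 members, 2 lay above a floor at the 90th percentile of genes of other organs, 2 above the median of all probe sets and 7 above the median of genes of other organs; none lay above the highest of those genes.

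Of the 40 member differences, 26 changed sign under some alternative, none of them past the threshold in any setting, and the cause was not tested. With other probe sets, Cd8a was -0.080 and -0.064 at 0.07, -0.037 and -0.15 at 0.71, -0.032 and -0.13 at 7.06, -0.055 and -0.088 at 70.6 and -0.10 (1 of 2 probe sets) at 706 mg/kg. The second Cd3e probe set gave -0.052 at 7.06, 0.035 at 70.6 and -0.076 at 706 mg/kg. The second Gzmb probe set gave -0.061 at 0.07, -0.065 at 0.71, -0.0045 at 70.6 and -0.021 at 706 mg/kg. With arrays centred on their medians, Cd3g was 0.0044 at 0.71, Cd2 0.010 at 7.06 and Cd3e 0.00055 at 70.6 mg/kg. Without the 2 arrays of high GAPDH difference, Cd3e was 0.0038 at 0.07, and Cd8a -0.088 and Ms4a1 -0.011 at 70.6 mg/kg.

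Leaving out 1 array at a time, the ranges that crossed 0 were as follows. At 0.07 mg/kg Cd8a spanned -0.046 to 0.19, Cd2 -0.041 to 0.088, Cd3e -0.10 to 0.035 and Gzmb -0.054 to 0.14. At 0.71 mg/kg Cd2 spanned -0.018 to 0.072, Cd3e -0.13 to 0.051, Cd3g -0.057 to 0.052 and Cd8b -0.0082 to 0.054. At 7.06 mg/kg Cd2 spanned -0.040 to 0.035, Cd3e -0.065 to 0.073, Cd3g -0.0037 to 0.10 and Gzmb -0.18 to 0.029. At 70.6 mg/kg Cd8a spanned -0.088 to 0.079, Cd3e -0.086 to 0.052, Cd3g -0.18 to 0.041 and Ms4a1 -0.083 to 0.092. At 706 mg/kg Cd2 spanned -0.050 to 0.062, Cd3e -0.031 to 0.11, Cd3g -0.011 to 0.11, Ms4a1 -0.049 to 0.017 and Gzmb -0.061 to 0.13. Pooled over the 6 groups, the median T with B correlation stayed above 0 in each alternative tried for it, between 0.053 and 0.18. Within single groups it was below 0 at 0.71 mg/kg (-0.35) and 706 mg/kg (-0.53) and above 0 in the others.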
